A study of Mus musculus with 6 samples.

Results

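The solute carriers described here are the transporters that move an ion across a membrane in exchange for, or together with, another ion, in the 7 families Slc4a, Slc8a, Slc9a, Slc12a, Slc24a, Slc26a and Slc34a. A gene was included when its symbol carries 1 of these prefixes and a probe set of the array is annotated to it alone, with Slc26a4 and Slc12a2 left out by the rule. This gave 45 genes, read by 92 probe sets, of the 18193 genes and 34945 probe sets with a single gene name. By family there were 10 genes of Slc4a, 3 of Slc8a, 9 of Slc9a, 7 of Slc12a, 4 of Slc24a, 9 of Slc26a and 3 of Slc34a. The label is broad, since the Slc12a and Slc34a carriers are cotransporters and not exchangers, and 3 of the genes encode no transporter. These are Slc4a1ap, which encodes the adaptor protein kanadaptin, and Slc9a3r1 and Slc9a3r2, which encode the scaffolds NHERF1 and NHERF2.

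Transcripts were measured on 6 short-oligonucleotide arrays, 3 of cochlear and 3 of vestibular sensory epithelia, taken at postnatal day 2 from C3H mice that were wild type, and no treatment or second genotype entered the comparison. Pools were made from 10 to 12 inner ears, 3 for each tissue. A value sums over several cell types, since the samples of both tissues held neurons and mesenchyme beside the epithelium, and a vestibular sample mixed 4 sensory organs, namely the anterior crista, the lateral crista, the utricle and the saccule. For transcripts the study speaks of 3 biological experiments with 3 replicates in each. How these correspond to the 3 arrays of each tissue is not stated, nor is the assignment of pools to arrays. The p-values therefore refer to the spread of these 6 arrays, part of which may be technical. The values are log2 expression values that the authors deposited with 1 decimal, in which a difference of 1 is a fold of 2. Each gene was read by its probe set with the highest mean over all 6 arrays, and differences are vestibule minus cochlea. A gene was called where its limma adjusted p was under 0.1 and the tissues differed by a fold of 1.3 or more.

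These carriers set the composition of the fluids of the inner ear and of the cells that line them. Sodium and bicarbonate cotransporters and anion exchangers of the Slc4a family move bicarbonate, sodium and proton exchangers of the Slc9a family remove acid, and the Slc26a family carries chloride, sulfate, bicarbonate or iodide. Slc8a and Slc24a exchangers expel calcium in return for sodium, the Slc24a group with potassium carried along. Slc12a cotransporters move chloride with sodium or potassium, and Slc34a carriers take up phosphate with sodium. Most of them draw on the sodium gradient that the sodium pump maintains.

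The promoter sequences of the carriers with the largest differences, Slc34a2, Slc4a4 and Slc8a1 towards the vestibule and Slc24a3 towards the cochlea, are given first, since they are the regulatory sequences nearest to the transcripts that the results turn on. They are windows of 300 bases, 250 before and 50 after a RefSeq transcript start on GRCm38.p6, written 5′ to 3′ on the strand of the gene with each CpG dinucleotide in capitals. The arrays measure transcripts and do not read these windows. Both RefSeq starts of Slc4a4 are shown, and the first of Slc24a3.
Slc34a2, chr5:53049103-53049402, plus strand: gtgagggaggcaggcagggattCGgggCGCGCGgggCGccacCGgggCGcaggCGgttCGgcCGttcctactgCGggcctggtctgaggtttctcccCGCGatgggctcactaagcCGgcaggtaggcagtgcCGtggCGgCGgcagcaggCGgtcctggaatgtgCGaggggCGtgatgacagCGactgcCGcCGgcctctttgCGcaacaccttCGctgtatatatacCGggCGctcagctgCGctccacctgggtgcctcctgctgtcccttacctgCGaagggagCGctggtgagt
Slc4a4 first start, chr5:88887010-88887309, plus strand: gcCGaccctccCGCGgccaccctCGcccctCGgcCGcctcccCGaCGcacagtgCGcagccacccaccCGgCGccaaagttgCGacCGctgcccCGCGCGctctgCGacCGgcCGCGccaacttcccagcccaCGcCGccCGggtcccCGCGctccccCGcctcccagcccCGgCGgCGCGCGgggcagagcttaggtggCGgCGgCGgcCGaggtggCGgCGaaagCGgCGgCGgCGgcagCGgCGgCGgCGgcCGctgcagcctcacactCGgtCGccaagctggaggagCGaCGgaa
Slc4a4 second start, chr5:89027716-89028015, plus strand: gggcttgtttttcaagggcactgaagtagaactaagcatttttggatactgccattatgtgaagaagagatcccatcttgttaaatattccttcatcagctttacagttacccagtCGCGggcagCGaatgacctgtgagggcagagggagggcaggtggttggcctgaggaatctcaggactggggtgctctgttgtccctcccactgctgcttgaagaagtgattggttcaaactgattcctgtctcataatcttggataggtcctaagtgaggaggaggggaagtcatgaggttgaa
Slc8a1, chr17:81738338-81738637, minus strand: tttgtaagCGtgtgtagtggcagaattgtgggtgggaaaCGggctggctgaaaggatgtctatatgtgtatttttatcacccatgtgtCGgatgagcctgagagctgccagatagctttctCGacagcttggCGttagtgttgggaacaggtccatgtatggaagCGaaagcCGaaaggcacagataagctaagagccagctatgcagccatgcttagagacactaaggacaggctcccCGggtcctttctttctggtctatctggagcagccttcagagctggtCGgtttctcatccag
Slc24a3 first start, chr2:145167525-145167824, plus strand: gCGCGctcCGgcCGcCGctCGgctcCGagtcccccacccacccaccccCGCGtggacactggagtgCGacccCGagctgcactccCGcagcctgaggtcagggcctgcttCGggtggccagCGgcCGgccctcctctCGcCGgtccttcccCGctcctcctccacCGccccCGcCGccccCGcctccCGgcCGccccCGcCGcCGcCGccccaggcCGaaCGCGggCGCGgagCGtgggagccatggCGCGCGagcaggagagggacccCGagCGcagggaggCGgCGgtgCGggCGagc
The windows differed widely in CpG content. The first Slc4a4 window held 50 CpG dinucleotides, and 99.3% of the 32851 mouse promoter windows in the table held no more, whereas the second held 3 (31.4%). Slc24a3 held 43 (97.8%), Slc34a2 30 (89.4%) and Slc8a1 9 (56.5%). Over all windows the median was 7. Of the 11 called genes described below, 9 had windows to search, 15 in all. On both strands, with overlaps between motifs allowed, the TATA box letters TATAAA were found in 0 of these 15 windows, the GC box letters GGGCGG in 7 and the CCAAT box letters CCAAT in 4. The shares over all windows were 13.6%, 35.7% and 37.4%. Both windows of Slc12a7 overlapped and held the same GC box matches, so the 7 windows are not all separate. Counted by gene, the GC box letters were found in 6 of the 9, which is not a share of windows. In the windows printed, the GC box letters stood 4 times in that of Slc24a3 and once in the first of Slc4a4, and the CCAAT letters once in the second of Slc4a4. A match here is a description of the letters and not a binding site.

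Of the 45 genes, 34 passed the filter on low values, a mean of at least 4.68 over the 6 arrays, and were tested. Of these, 11 were called, 7 towards the vestibule and 4 towards the cochlea, or 32.4%, while 23.1% of the 14184 genes tested on the arrays were called. The 7 made up 20.6% against 15.1% of all tested genes, and the 4 made up 11.8% against 7.97%. With no filter, 10 of all 45 genes were called (22.2%, against 18.0% of 18193 genes), 7 towards the vestibule and 3 towards the cochlea (15.6% and 6.67%, against 11.7% and 6.34%). The median difference was 0.03 for the tested carriers and 0.03 for all tested genes, and the median absolute difference was 0.22 and 0.20. In these counts and medians the families as a whole lay close to the rest of the array. The arrays of the tissues did not overlap for 7 tested carriers with the vestibule above (20.6%, against 19.9% of tested genes) and for 5 with the cochlea above (14.7%, against 12.4%). The calls fell on every family, with 2 of 7 tested genes of Slc4a, 1 of 3 of Slc8a, 2 of 8 of Slc9a and 1 of 2 of Slc34a higher in the vestibule. In Slc12a 2 of 6 and in Slc24a 1 of 3 were higher in the cochlea, and in Slc26a 1 of 5 was higher in each tissue. In such mixed tissue, fewer cells of a type and less RNA per cell cannot be told apart.

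**Figure D1:**
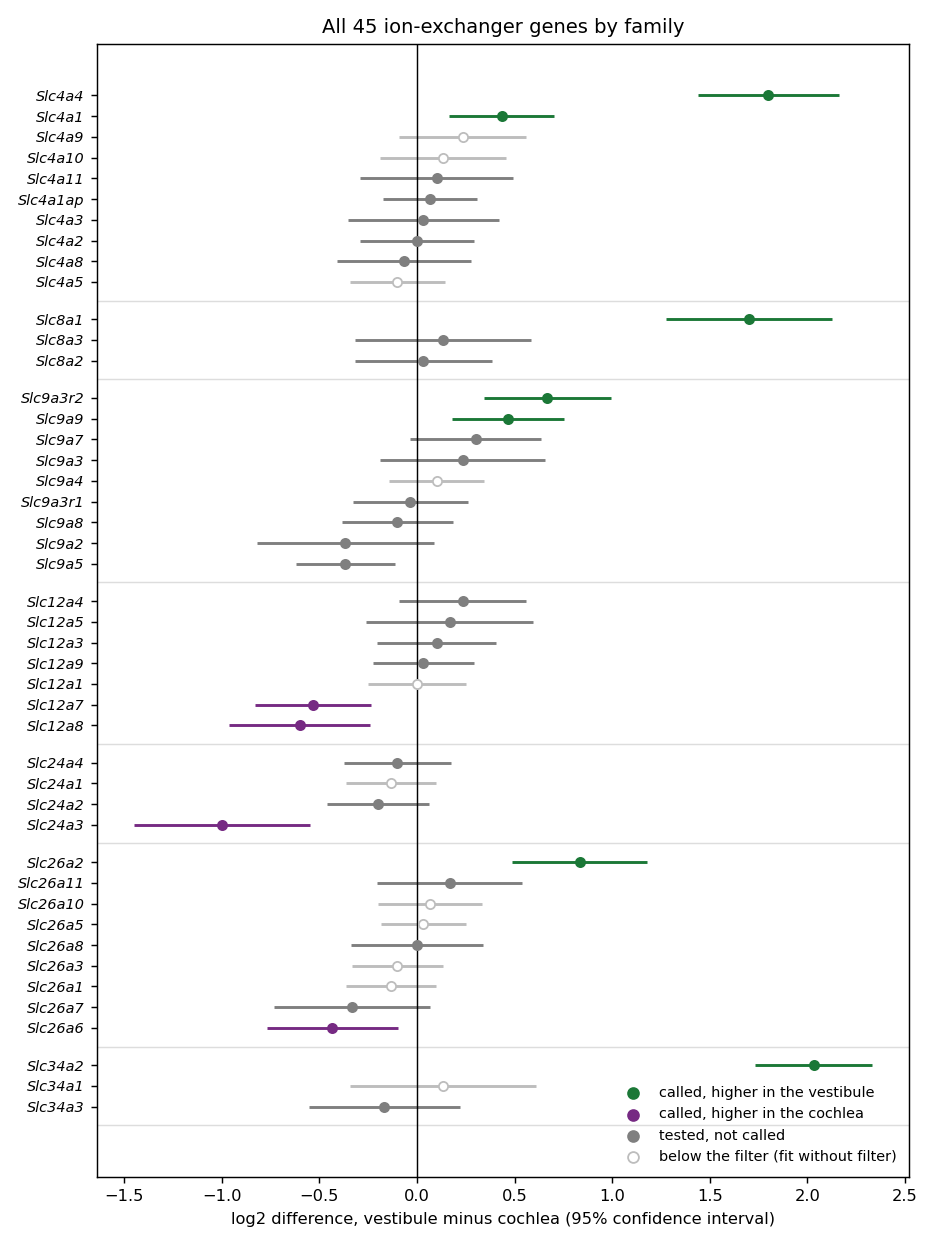
Log2 difference, vestibule minus cochlea, of all 45 genes by family, with 95% confidence intervals; green is called higher in the vestibule, purple called higher in the cochlea, grey tested and not called, and open points lie below the filter, with intervals from the fit without it. Slc34a2 at 2.03, Slc4a4 at 1.80 and Slc8a1 at 1.70 stand apart on the right and Slc24a3 at -1.0 on the left, and the uncalled tested genes lie between -0.37 and 0.30.

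Slc34a2, which encodes the sodium and phosphate cotransporter NaPi-IIb of secretory and absorptive epithelia, had the largest difference of the carriers. Its log2 values were 5.3, 5.2 and 5.2 on the cochlear arrays and 7.5, 7.2 and 7.1 on the vestibular arrays. Every vestibular array was far above every cochlear array, and the spread within a tissue was small beside the gap. The difference was 2.03 (95% interval 1.73 to 2.33), a fold of 4.09 (limma adjusted p = 1.98e-05). Among the 2142 genes higher in the vestibule, 177, or 8.26%, had a difference at least as large. Slc34a2 was read by 1 probe set. Of the other family members, Slc34a3, the renal NaPi-IIc, differed by -0.17 and was not called, and Slc34a1, the renal NaPi-IIa, lay below the filter at 4.50 and 4.63.

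Slc4a4 encodes the electrogenic sodium and bicarbonate cotransporter NBCe1. Its values were 7.9, 7.7 and 7.3 in the cochlea and 9.4, 9.5 and 9.4 in the vestibule. The vestibular arrays nearly coincided, and the highest cochlear array was well below them. The difference was 1.80 (1.44 to 2.16), a fold of 3.48 (limma adjusted p = 1.03e-04), and 11.6% of the genes higher in the vestibule differed by at least as much. With the mean of its 5 probe sets in place of the brightest the difference was 0.91 and remained called. The second gene of the family to be called was Slc4a1, the anion exchanger of red blood cells known as band 3, at 4.9, 4.8 and 5.0 in the cochlea and 5.2, 5.4 and 5.4 in the vestibule. The tissues did not overlap, but the gap was small and the levels were close to the filter. The difference was 0.43 (0.17 to 0.70, limma adjusted p = 0.0370). It was not called without vestibule replicate 2 (0.40, adjusted p = 0.131), without vestibule replicate 3 (0.40, 0.137), or with each array centred on its median, where the fold was under the minimum at 0.37. Of 9 red blood cell genes on the table, Alas2 of heme synthesis was higher in the vestibule (0.87) and Sptb, a spectrin chain, in the cochlea (-0.67). Hba-a1, Epb42, Kel and Rhag were below the filter in both tissues, and the summed linear level of the list was 470 to 537 on the cochlear and 496 to 524 on the vestibular arrays.

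The other 5 tested genes of the Slc4a prefix were not called, with differences of -0.07 to 0.10. Slc4a2, the widely expressed anion exchanger AE2, stood at 9.30 in both tissues, with an interval of -0.29 to 0.29. Slc4a11, a membrane carrier of inner ear fibrocytes and corneal endothelium, differed by 0.10, with an interval of -0.29 to 0.49 that holds differences past the minimum fold in the vestibular direction. Slc4a3, the anion exchanger AE3, differed by 0.03, Slc4a8, a sodium-driven chloride and bicarbonate exchanger, by -0.07, and Slc4a1ap by 0.07. Slc4a5, Slc4a9 and Slc4a10 lay below the filter, with differences of -0.10, 0.23 and 0.13.

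Calcium exchangers were called in opposite directions. Slc8a1, the sodium and calcium exchanger NCX1, read 4.9, 5.2 and 5.5 on the cochlear arrays and 7.0, 6.6 and 7.1 on the vestibular arrays. The lowest vestibular array was above the highest cochlear array by more than the range within either tissue. The difference was 1.70 (1.27 to 2.13), a fold of 3.25 (limma adjusted p = 3.58e-04), and 13.2% of the genes higher in the vestibule had one at least as large. Averaged over its 4 probe sets the difference was 0.64 and still called, and under a stricter filter of 20000 probe sets it was not tested. Slc8a2 and Slc8a3, which encode the exchangers NCX2 and NCX3 of neurons and muscle, differed by 0.03 and 0.13 and were not called.

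Slc24a3 encodes NCKX3, an exchanger of sodium for calcium and potassium. It read 9.6, 10.1 and 9.3 in the cochlea and 8.7, 8.8 and 8.5 in the vestibule. Every cochlear array was above every vestibular array, although the cochlear arrays were spread over most of the distance between the tissue means. The difference was -1.0 (-1.45 to -0.55), a fold of 2.00 towards the cochlea (limma adjusted p = 0.00868). Of the 1130 genes higher in the cochlea, 35.2% differed by at least as much, so that this was not a large difference for these arrays. With a plain t-test the adjusted p was 0.106 and the call was lost. Slc24a2, the exchanger of cones and neurons, differed by -0.20 and Slc24a4 by -0.10, both uncalled, and Slc24a1, the exchanger of rods, lay below the filter at 3.60 and 3.47. Beside Slc24a3, 12 of 13 neuronal marker genes were higher in the cochlea, with a summed linear level of 6091 to 7387 there against 2972 to 3056 on the vestibular arrays. Their part in the difference of Slc24a3 was not tested.

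**Figure D2:**
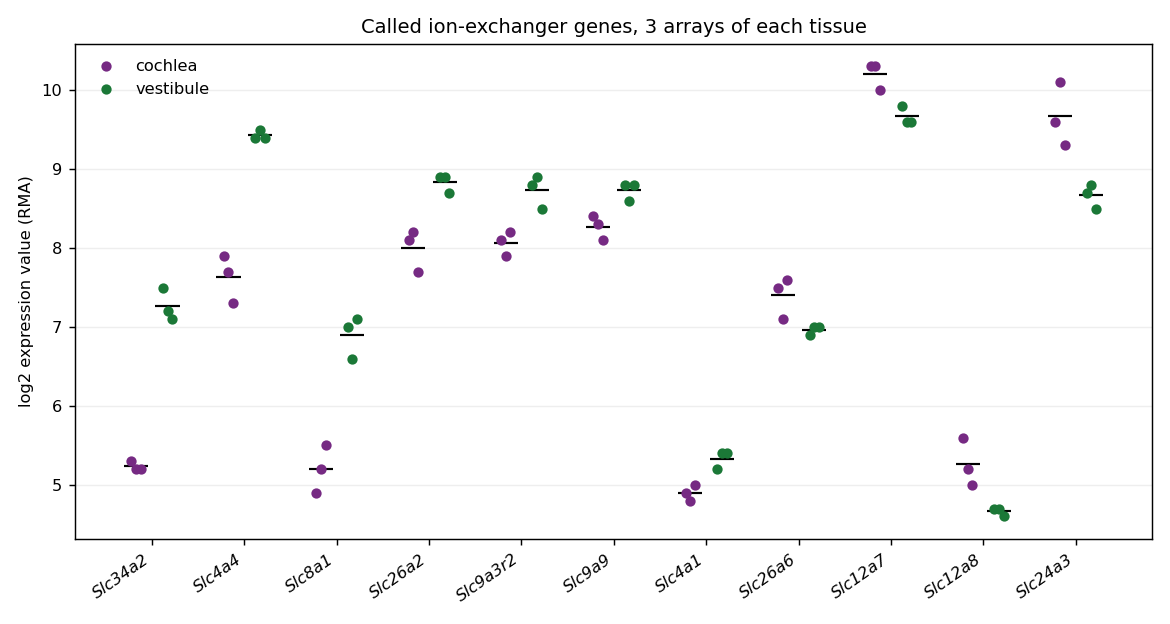
Log2 expression value of the 11 called genes, 1 point for each array (purple cochlea, green vestibule) and a bar at the mean of each 3, in order of the difference. The points of the tissues do not overlap for any of the 11, with the widest gaps in Slc34a2, Slc4a4 and Slc8a1 and the narrowest in Slc26a6, where the lowest cochlear value is 7.1 and the highest vestibular value 7.0.

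In the Slc9a family the 2 called genes were a scaffold and an exchanger of endosomes. Slc9a3r2, the scaffold NHERF2 that tethers membrane carriers to the cytoskeleton, read 8.1, 7.9 and 8.2 in the cochlea and 8.8, 8.9 and 8.5 in the vestibule. The tissues did not overlap. The difference was 0.67 (0.34 to 0.99, limma adjusted p = 0.0130). Its call was lost when the replicate number was set as a block in the fit (limma adjusted p = 0.105). Slc9a9, the endosomal sodium and proton exchanger NHE9, read 8.4, 8.3 and 8.1 against 8.8, 8.6 and 8.8. Its tissues did not overlap either, with 0.2 between the nearest arrays. The difference was 0.47 (0.18 to 0.75, limma adjusted p = 0.0366). It was not called without vestibule replicate 1 (0.43, adjusted p = 0.148), without vestibule replicate 3 (0.43, 0.142), with a second quantile normalization, where the difference of 0.37 was under the minimum fold, or with the mean of its probe sets (0.20, 0.183).

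The other 6 tested genes of Slc9a were not called. Slc9a5, an exchanger of brain, lay just outside the threshold at 5.6, 5.6 and 5.8 against 5.3 on each vestibular array. Its arrays did not overlap and the adjusted p was 0.0565, but the difference of -0.37 was under the minimum fold, and it was called with no minimum fold. It was also called with each array centred on its median (-0.43), with a second quantile normalization (-0.39) and without cochlea replicate 1 (-0.40, limma adjusted p = 0.0768) or 2 (-0.40, 0.0505). Slc9a2, the exchanger NHE2, had the widest interval of the uncalled genes, -0.82 to 0.09 about -0.37, with 7.0, 6.3 and 6.2 in the cochlea and 6.1, 6.2 and 6.1 in the vestibule. Only cochlea replicate 1 stood apart. Without it the difference was -0.12 (limma adjusted p = 0.526), and with array weights the gene was called at -0.60 (limma adjusted p = 0.0446). Slc9a3, the exchanger NHE3 of kidney and gut, stood at 4.63 in the cochlea and 4.87 in the vestibule, a difference of 0.23 (-0.19 to 0.66). The cochlear mean of Slc9a3 was below the filter, so that the gene was tested through its vestibular level. Slc9a7, an exchanger of the trans-Golgi network, differed by 0.30 and was called without cochlea replicate 1 (0.43, limma adjusted p = 0.0919). Slc9a8 differed by -0.10 and Slc9a3r1, the scaffold NHERF1, by -0.03. Slc9a4 lay below the filter.

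The 2 called genes of Slc12a were higher in the cochlea. Slc12a7, the potassium and chloride cotransporter KCC4, whose loss causes deafness in mice, read 10.3, 10.3 and 10.0 in the cochlea and 9.8, 9.6 and 9.6 in the vestibule. The tissues did not overlap, with 0.2 between the nearest arrays. The difference was -0.53 (-0.83 to -0.24), a fold of 1.45 (limma adjusted p = 0.0234). It was not called without vestibule replicate 2 (-0.50, adjusted p = 0.105) or vestibule replicate 3 (-0.50, 0.109). Slc12a8, a distant relative of the chloride cotransporters, read 5.6, 5.2 and 5.0 against 4.7, 4.7 and 4.6. Each cochlear array was higher, but the vestibular mean of 4.67 was below the filter, so that the gene was tested through its cochlear level and its difference may be understated. The difference was -0.60 (-0.96 to -0.24, limma adjusted p = 0.0336). It was not called without vestibule replicate 1 (-0.62, adjusted p = 0.132), replicate 2 (-0.62, 0.116) or replicate 3 (-0.57, 0.149), or with the plain t-test (0.150).

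The remaining Slc12a genes were not called. Slc12a5, the potassium and chloride cotransporter KCC2 of neurons, had means of 7.43 (cochlea) and 7.60 (vestibule), a difference of 0.17 with an interval of -0.26 to 0.59. Slc12a4, the widely expressed KCC1, differed by 0.23, Slc12a3, the renal sodium and chloride cotransporter, by 0.10 and Slc12a9 by 0.03. Slc12a1, the renal cotransporter NKCC2, lay below the filter at 3.73 in both tissues.

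In the Slc26a family 1 gene was higher in each tissue. Slc26a2, the sulfate transporter that supplies the sulfation of cartilage proteoglycans, read 8.1, 8.2 and 7.7 in the cochlea and 8.9, 8.9 and 8.7 in the vestibule. The tissues did not overlap. The difference was 0.83 (0.49 to 1.18), a fold of 1.78 (limma adjusted p = 0.00573), and it was 0.49 with the mean of its 3 probe sets, still called. Of 10 genes of cartilage and bone on the table, 5 were higher in the vestibule, Ibsp the most (4.40). The 1 higher in the cochlea was Matn1 (-3.93), and the median difference of the list was 1.1. Their summed linear level was 18310 to 24675 on the cochlear and 22044 to 24967 on the vestibular arrays. This sum leans on the brightest genes, Col2a1 (-0.17) and Col9a1 (0.23), neither called. The part of the listed genes in the difference of Slc26a2 was not tested.

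Slc26a6, an exchanger of chloride for oxalate or bicarbonate, read 7.5, 7.1 and 7.6 against 6.9, 7.0 and 7.0. The nearest arrays were 0.1 apart, which is the last decimal of the values. The difference was -0.43 (-0.77 to -0.10, limma adjusted p = 0.0853), the highest adjusted p of the called carriers. It was lost without cochlea replicate 1 (-0.38, adjusted p = 0.225), cochlea replicate 3 (-0.33, 0.210), or vestibule replicate 1 (-0.40, 0.264), 2 (-0.45, 0.200) or 3 (-0.45, 0.210), and with the plain t-test (0.212). Slc26a5, prestin, the motor protein of cochlear outer hair cells, lay below the filter, at 3.93 in the cochlea and 3.97 in the vestibule. Of the marker genes of outer hair cells, Strc differed by 0.23 and Ikzf2 by -0.27, neither called, and the others had no single-gene probe set. Slc26a7, a chloride and bicarbonate carrier, read 10.43 and 10.10, a difference of -0.33 (-0.73 to 0.07, limma adjusted p = 0.261). Slc26a11 differed by 0.17 and Slc26a8, a testis gene, by 0.00, while Slc26a1, Slc26a3 and Slc26a10 lay below the filter. Across all families the 11 genes below the filter differed by -0.13 to 0.23.

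The further probe sets of a gene give a second reading of the same RNA, not a further replicate. The 45 genes had 92 probe sets, of which 54 were tested and 22 called (40.7%, against 19.4% of all tested probe sets). Towards the vestibule there were 17 (31.5%, against 12.0%) and towards the cochlea 5 (9.26%, against 7.37%), with several of them from 1 gene. The shares over all tested probe sets include those with several genes or none, and so are over an unlike set. No gene had probe sets called both ways. Slc9a3r2 was called by 6 of 6, with differences of 0.53 to 0.80. Slc4a4 was called by 3 of 5, at 1.80, 1.07 and 0.77, while the 2 below the filter stood at 1.00 and -0.10. Slc8a1 was called by 2 of 4, at 1.70 and 1.13, and the others, below the filter, stood at -0.27 and 0.00. For both genes the mean of all probe sets given above includes those below the filter. Slc26a2 was called by 2 of 3 (0.83 and 0.47, with 0.17 below the filter). At its probe set with 0.47 the arrays of the tissues overlapped (limma adjusted p = 0.0930). Slc4a1 was called by 2 of 3 (0.43 and 0.97, with -0.07 below the filter) and Slc12a7 by 2 of 2 (-0.53 and -0.43). Slc9a9 was called by 1 of 4, with 0.23, 0.07 and 0.03 below the filter. Slc12a8 had a second probe set below the filter at -0.87 whose arrays did not overlap. Slc24a3, Slc26a6 and Slc34a2 had 1 probe set each.

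**Figure D3:**
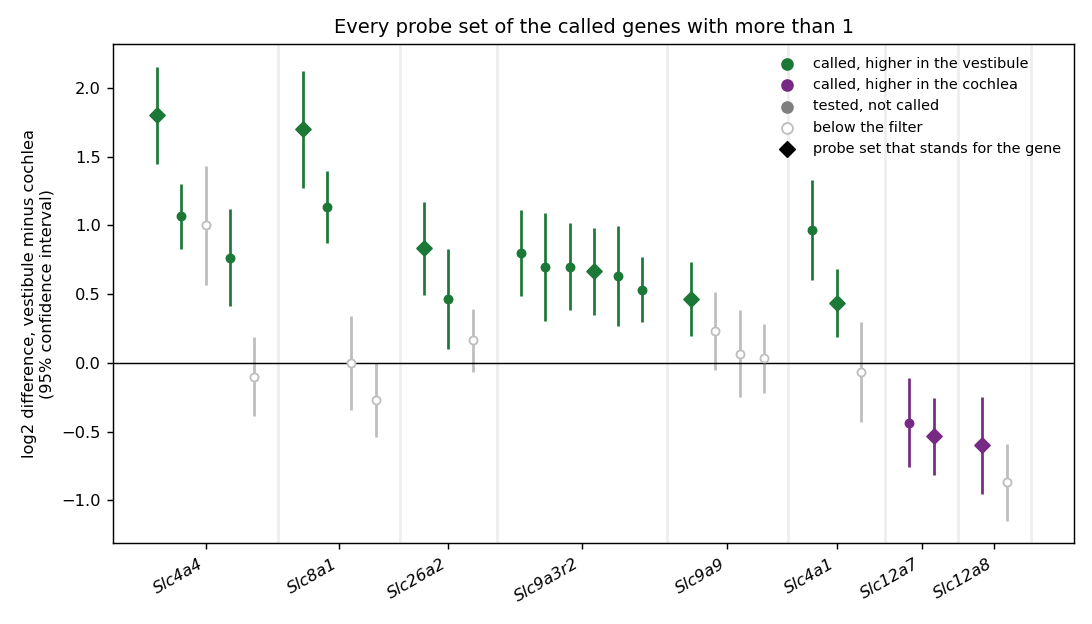
Log2 difference, vestibule minus cochlea, of every probe set of the called genes with more than 1, with 95% confidence intervals from the fit without the filter; diamonds mark the probe set that stands for the gene, colours its call, and open points lie below the filter. All 6 probe sets of Slc9a3r2 lie between 0.53 and 0.80, whereas those of Slc4a4 run from -0.10 to 1.80 and those of Slc8a1 from -0.27 to 1.70.

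Genes that power or regulate these carriers were read from a list of 51, of which 2 are the scaffolds above and 6 had no single-gene probe set. Of the other 43, 36 were tested, of which 9 were called towards the vestibule, where 15.1% of all tested genes were, 3 towards the cochlea, where 7.97% were, and 24 not at all. Of the called partner genes 75.0% were higher in the vestibule, beside 65.5% of all called genes. With each array centred on its median these shares were 61.5% and 55.9%, and with a second quantile normalization 64.3% and 56.9%. Of the sodium pump and its FXYD regulators, 12 genes on the table, the pump subunits Atp1b2 (1.67) and Atp1b3 (0.93) and the regulator Fxyd5 (1.10) were higher in the vestibule and Fxyd7 (-0.83) in the cochlea. Atp1b1, the most widely used beta subunit, differed by -0.30 and was not called. Of 9 genes of the WNK and SPAK kinase cascade, which switches the Slc12a cotransporters on or off, Wnk2 (1.03) was higher in the vestibule and 8 were not called, among them Stk39, which encodes SPAK, at 0.40 (limma adjusted p = 0.147). Of 6 further cofactors, Ahcyl1 (0.63), which encodes IRBIT, an activator of Slc4a4, was higher in the vestibule, and Tesc (-0.87), which encodes a calcium-binding partner of sodium and proton exchangers, in the cochlea.

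The largest partner difference was among the calcium pumps. Atp2c2, a calcium and manganese pump of the Golgi in secretory cells, had a mean of 5.93 on the cochlear and 8.4 on the vestibular arrays, a difference of 2.47 (2.16 to 2.78, limma adjusted p = 8.00e-06). Atp2b3, a calcium pump of the plasma membrane, was called at 0.57 (adjusted p = 0.0768), although its arrays overlapped between the tissues. The pump Atp2b2 of hair bundles differed by 0.27 and the mitochondrial exchanger Slc8b1 by -0.03, neither called. Of 6 other carriers of phosphate and sulfate, Slc13a4, a sulfate cotransporter (1.5), and Slc20a2, a phosphate cotransporter (0.70), were higher in the vestibule. Slc20a1, a close relative of Slc20a2, was higher in the cochlea (-1.0). Phosphate uptake genes were thus called both ways, with Slc34a2 and Slc20a2 on one side and Slc20a1 on the other.

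**Figure D4:**
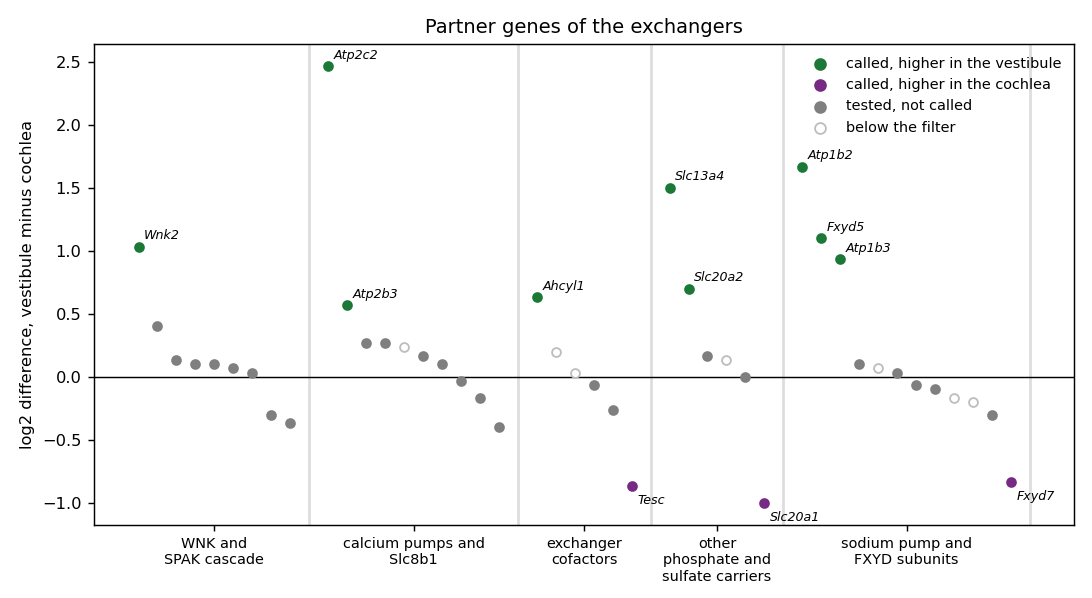
Log2 difference, vestibule minus cochlea, of the 43 partner genes in 5 groups; green is called higher in the vestibule, purple called higher in the cochlea, grey tested and not called, open below the filter. Each group holds 1 to 3 genes higher in the vestibule, with Atp2c2 at 2.47 the highest, and most genes lie near 0.

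Marker genes of the cell types in the dissected tissue also differed, and their part in the values of the carriers was not tested. The summed linear levels of hair cell markers were 2779 to 3400 on the cochlear and 7173 to 8432 on the vestibular arrays, with 8 of 12 genes higher in the vestibule, all 12 above the filter. Markers of endolymph secreting cells were at 697 to 958 and 2805 to 3317 (5 of 6 higher in the vestibule), macrophages at 2856 to 3563 and 10098 to 12115 (12 of 13), and fibrocytes and mesenchyme at 30031 to 39837 and 57096 to 58419 (5 of 10, with 2 higher in the cochlea). Higher in the vestibule were also 6 of 8 melanocyte, 5 of 9 endothelial, 4 of 7 osteoclast and 3 of 8 Schwann cell genes, each with 1 gene higher in the cochlea except the osteoclasts, with 0. Of 11 genes of smooth and skeletal muscle 1 was higher in each tissue and 7 were below the filter. Slc34a2, Slc4a4 and Slc8a1 therefore lay on the same side as several cell types at once, and these 6 arrays of whole tissue cannot tell apart which cells carried them.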

How the data were processed

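Sensory epithelia were profiled on 6 Affymetrix mouse arrays after 2 rounds of amplification. The authors deposited log2 expression values made by RMA with quantile normalization, with 1 decimal, and no source used here gives the versions of RMA and MAS5. The medians were 5.6 to 5.7 on each array. Their filter on Present calls needs probe-level values, so the same number of probe sets, 29636, was kept by mean value, which gave a minimum of 4.68. RMA shrinks differences of dim probe sets, so those near this minimum may be understated.

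Vestibule and cochlea were compared with limma 3.58.1 in R 4.3.3 (with data.table, version 1.17.8), two-sided, with Benjamini-Hochberg adjustment over these probe sets, and tested on simulated data. An exact test of 3 arrays against 3 cannot go below p = 0.1. The thresholds are those the study gives for transcripts, and it names no test for these arrays. Symbols were updated through Entrez numbers, and 932 probe sets with several genes and 9160 with none were left out of the gene counts. The carriers, the 5 partner lists and 13 marker lists were chosen with earlier results of these data known. Called carriers, the uncalled one with the widest interval and those with a known role in the ear (Slc4a11, Slc9a3, Slc26a5) were named by rule, and other uncalled ones after their values were seen. Alternatives changed the filter, scaling, test, thresholds, probe set rule, rounding and arrays used, and set the replicate number as a block. Figures were drawn with matplotlib 3.10.9 in Python 3.11.15, from tables read with numpy 2.4.6 and pandas 2.3.3. Confidence intervals are at 95%.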

Additional observations from a re-analysis of the deposited data

How the results depend on the processing

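No difference of a called carrier changed sign under any alternative run. Slc34a2, Slc4a4 and Slc26a2 kept their calls under all 19 alternatives run on single genes and Slc8a1 under the 18 that tested it. The carriers called higher in the vestibule numbered 7, and 5 to 8 with each array left out in turn. Those higher in the cochlea numbered 4, and 1 to 5 with each array left out. With the plain t-test they numbered 1, since Slc24a3, Slc12a8 and Slc26a6 were lost. The partner genes higher in the vestibule numbered 9 (7 to 9 with arrays left out), and those higher in the cochlea 3 (3 to 4), with 5 under median centring, 5 under the second quantile normalization and 6 with array weights. Slc26a6 lost its call in 9 of 19 alternatives, among them an adjusted p under 0.05 and no filter.

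Whether arrays with the same replicate number were paired is not stated. The deviations of arrays with the same number correlated at 0.217, 0.153 and -5.5e-04. Those of cochlear and vestibular arrays with different numbers correlated at -0.224 to 0.029. These few values do not settle the question, so pairing was not assumed in the main fit. With the replicate block 6 carriers were called towards the vestibule and 3 towards the cochlea, and Slc9a3r2 (adjusted p = 0.105) and Slc26a6 (0.164) were lost. The partner genes then numbered 8 and 3.

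With 3 arrays of each tissue, the number of arrays limits the precision. The median SD of the carriers was 0.173 in the cochlea and 0.115 in the vestibule, near the 1 decimal of the values. An uncalled carrier is not shown to be equal in the tissues, since the intervals of the 23 uncalled genes reach from -0.82 to 0.66.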
